A study of Mus musculus with 4 samples.

Results

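The genes described here are 10 components of the Nrf2 antioxidant response, chosen by name from a table of 21705 genes: Nfe2l2, Keap1, Nqo1, Hmox1, Gclc, Gclm, Txnrd1, Srxn1, Gsr and Prdx1. All 10 were found by symbol and Entrez identifier, and all 10 matched a protein-coding gene of the same identifier in RefSeq. They were measured by RNA-seq in sorted splenic T cells of C57bl/6 mice, in a study of the aryl hydrocarbon receptor (AhR) and acute graft-versus-host disease, in which transplanted T cells attack the tissues of the recipient. The 4 groups were CD4 T cells after allogeneic transplant, CD4 T cells at transplant, CD8 T cells after transplant and CD8 T cells at transplant. Each group was a single library made from a pool of 5 samples combined ahead of the flow sort (the labels do not say whether these were 5 mice), so no difference has a replicate check and no p-value is given. The later libraries are dated day 14 in their characteristics and day 12 in their titles. The libraries at transplant are called Donor in their titles, and the labels do not say whether the later libraries held donor cells alone. No genotype, drug or syngeneic control is named for any of the 4 libraries, and the source field calls the samples innate lymphoid cells, although the other labels call them T cells.

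Nrf2, the protein of Nfe2l2, is a transcription factor that is held in the cytoplasm and sent for degradation by Keap1. Oxidants and electrophiles modify cysteines of Keap1, and Nrf2 then accumulates, pairs with a small Maf protein and binds antioxidant response elements upstream of genes for glutathione and thioredoxin enzymes. Because the control acts mainly on the Nrf2 protein, the Nfe2l2 transcript is not a measure of Nrf2 activity. Nqo1, a quinone reductase, is a target of Nrf2 and also of AhR. In T cells the same enzymes buffer the peroxide that accompanies activation and growth.

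The promoter sequences of 4 of the genes are shown because these are the genes whose changes are described most closely below: Srxn1, with the largest rise, Txnrd1 and Prdx1, which act in the same peroxide pathway, and Nqo1. The sequences come from RefSeq on build GRCm38.p6, whereas the deposited values were made on mm9, and each runs 5′ to 3′ along its gene over 250 bases before and 50 bases after the start of transcription. Capitals mark the core of the antioxidant response element on either strand, spelled TGACNNNGC or TGAGNNNGC.
Srxn1, chr2:152105274-152105573, plus strand: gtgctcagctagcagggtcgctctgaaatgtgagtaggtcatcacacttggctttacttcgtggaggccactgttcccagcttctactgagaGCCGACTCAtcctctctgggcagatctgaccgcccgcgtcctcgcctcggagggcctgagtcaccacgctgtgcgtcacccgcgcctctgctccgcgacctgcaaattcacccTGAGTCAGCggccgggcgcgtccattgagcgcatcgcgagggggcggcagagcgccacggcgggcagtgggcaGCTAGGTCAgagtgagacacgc
Txnrd1, chr10:82858956-82859255, plus strand, the one of its 3 windows that holds TGACNNNGC: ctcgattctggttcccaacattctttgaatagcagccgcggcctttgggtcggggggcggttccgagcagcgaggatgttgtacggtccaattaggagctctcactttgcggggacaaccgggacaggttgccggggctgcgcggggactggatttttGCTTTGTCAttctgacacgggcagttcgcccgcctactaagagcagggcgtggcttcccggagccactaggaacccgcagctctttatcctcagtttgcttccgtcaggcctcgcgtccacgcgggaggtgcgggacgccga
Prdx1, chr4:116685349-116685648, plus strand: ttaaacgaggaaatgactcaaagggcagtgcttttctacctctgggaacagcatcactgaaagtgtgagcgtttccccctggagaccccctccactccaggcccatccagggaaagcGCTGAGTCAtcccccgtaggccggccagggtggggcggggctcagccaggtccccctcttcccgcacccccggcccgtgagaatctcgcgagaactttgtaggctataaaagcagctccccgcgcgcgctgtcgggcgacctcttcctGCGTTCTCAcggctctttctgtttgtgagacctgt
Nqo1, chr8:107403156-107403455, minus strand: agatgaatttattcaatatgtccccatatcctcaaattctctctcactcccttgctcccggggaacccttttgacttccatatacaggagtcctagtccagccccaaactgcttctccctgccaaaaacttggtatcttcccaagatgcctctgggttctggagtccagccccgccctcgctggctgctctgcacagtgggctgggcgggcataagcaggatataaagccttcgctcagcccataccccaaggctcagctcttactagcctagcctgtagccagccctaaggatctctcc

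Windows were listed for 7 of the 10 genes, namely Nfe2l2, Keap1, Nqo1, Gclm, Txnrd1, Srxn1 and Prdx1, with 3 windows for Txnrd1, of which the other two hold no TGACNNNGC and are not printed. TGACNNNGC was found in a window of 5 of these 7 genes (Nfe2l2, Gclm, Txnrd1, Srxn1 and Prdx1), and 14.0% of 27025 genes with a window held it. The Srxn1 match lay at bases 29 to 37 after the start, and the Txnrd1 and Prdx1 matches at bases -92 to -84 and -133 to -125. TGAGNNNGC, a second spelling searched after the windows had been read, was found in Srxn1 at -158 to -150 and -45 to -37 and in Prdx1 at 16 to 24, and 19.8% of all genes held it. The Prdx1 match at -133 and the Srxn1 match at -45 overlap TGANTCA, the site of AP-1 factors. GCGTG, the core that AhR binds, was found on either strand in 4 of the 7 genes (Keap1, Gclm, Txnrd1 and Srxn1), against 35.2% of all genes. The Nqo1 window held none of these motifs, and sequence outside the window was not searched. A match is a description of sequence and was not tested for binding.

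**Figure D1:**
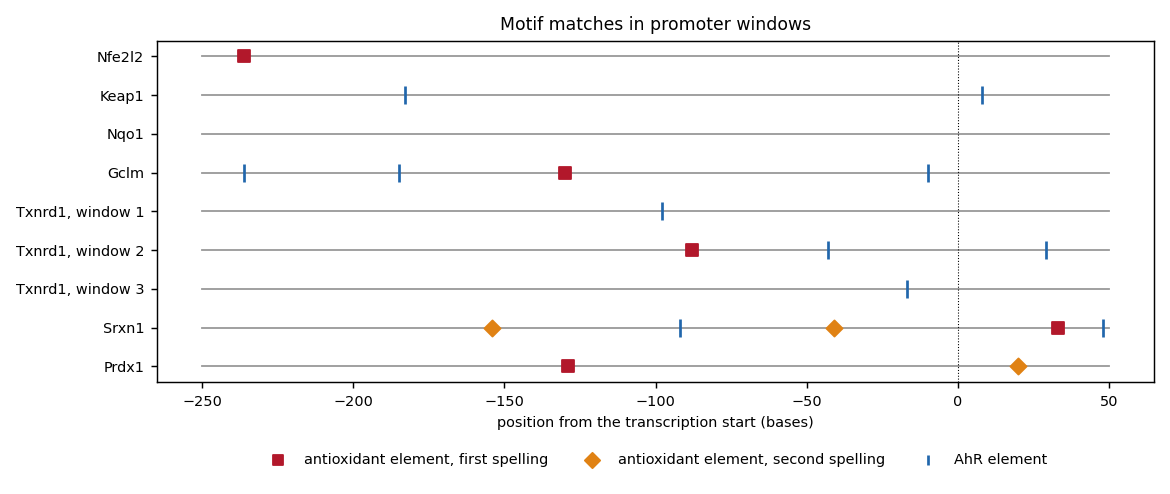
Positions of motif matches, in bases from the start of transcription, in the 9 promoter windows of 7 genes; each grey line is a window. Squares are TGACNNNGC, diamonds TGAGNNNGC and ticks GCGTG, on either strand, and 5 of the 7 genes carry a square.

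Values are the deposited normalised read counts: estimates of each gene's reads, brought library by library to an upper quartile near 1000 among genes above 0. Library depth was between 9873852 and 23633544 estimated reads, and 1 read was worth between 0.664 and 1.41. Log2 ratios were taken after adding 14.7, which is 1 ppm (1 part in 1000000) of the mean library total, and 2-fold on that scale is the threshold for calling a gene higher or lower. Plain ratios carry no added value and are given with a 95% exact interval that covers counting error only. Of the 10 genes 9 had a mean of at least 5 ppm (73.3), and Nqo1, with a mean of 25.8, did not. Reads were whole numbers within 0.1 in all libraries for 9 of the 10 genes, the exception being Keap1. Transcripts of the sort markers stood with the labels: in the CD4 libraries Cd4 stood at 17092 after transplant and 15134 at transplant, with Cd8a at 295 and 177, and in the CD8 libraries Cd8a stood at 17999 after transplant and 21107 at transplant, with Cd4 at 94.5 and 66.1. The summed level of 8 T cell genes was lower in both later libraries. It was 60564 in CD4 after transplant, against 71820 at transplant, and 56399 in CD8 after transplant, against 72675 at transplant. Of the 8, 0 were higher and 0 lower by 2-fold in CD4 (all genes at 1 ppm or more 13.7% and 11.7%). The same held in CD8 (all genes 17.7% and 10.9%). Cd2 was higher in both, with log2 ratios of 0.21 and 0.09.

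After transplant Srxn1, Txnrd1 and Gsr, which serve the peroxiredoxin, thioredoxin and glutathione cycles, rose past 2-fold in CD4 and in CD8, while Nfe2l2, the transcript of Nrf2 itself, fell. Of the 9 genes that passed 5 ppm, 3 were higher and 1 lower in CD4 after transplant, where 12.1% and 10.8% of 9933 genes were higher and lower. In CD8 after transplant 5 were higher and 1 lower, where 15.0% and 11.0% of genes were. Of the 9, 3 were higher in both, as were 10.5% of all genes, and 1 was lower in both, as were 7.89%. Prdx1 and Hmox1 passed 2-fold in CD8 and not in CD4, where their log2 ratios were 0.84 and -0.70. The median log2 ratio of the 9 genes was 0.45 in CD4 and 1.07 in CD8, against -0.08 and 0.02 over all genes. In CD4, 52.8% of the genes past 2-fold were higher, and 62.9% with library totals set equal. The 10 genes spread over both directions, as the plot of CD4 and CD8 ratios shows.

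**Figure D2:**
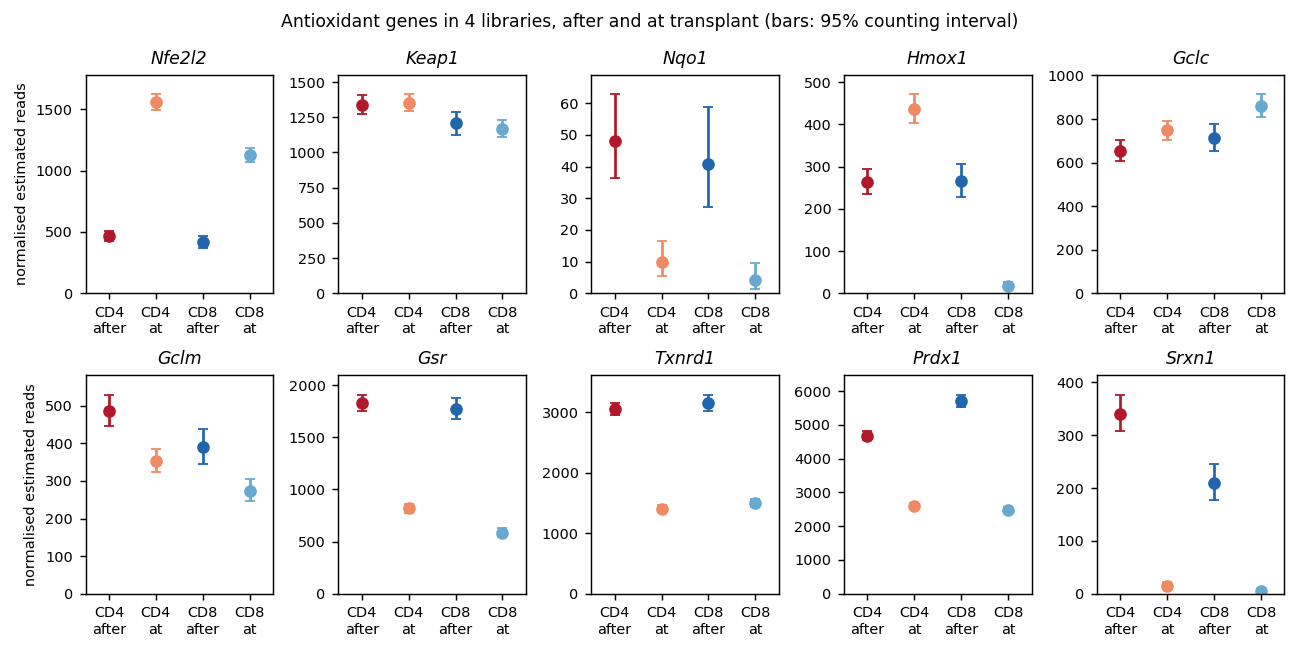
Normalised read count of each of the 10 genes in the 4 libraries (CD4 after, CD4 at, CD8 after, CD8 at transplant), with 95% exact Poisson intervals of the reads. Srxn1, Nqo1, Gsr and Txnrd1 pass 2-fold higher in both later libraries, Prdx1 and Gclm lie above their values at transplant in both by smaller ratios (Prdx1 past 2-fold in CD8), Nfe2l2 is lower in both, and Hmox1 is lowest in CD8 at transplant, at 18.2.

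**Figure D3:**
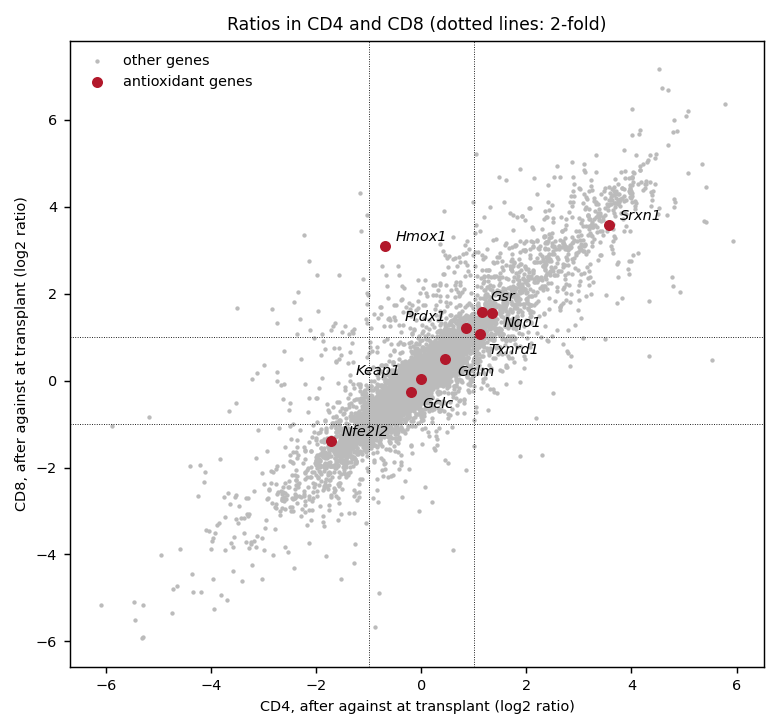
Log2 ratio after against at transplant in CD4 (horizontal) and in CD8 (vertical) for the 10 antioxidant genes (red) and all other genes averaging 5 ppm or more (grey); dotted lines mark 2-fold. Hmox1 stands apart, at -0.70 in CD4 and 3.09 in CD8, and Srxn1 has the highest CD4 ratio of the 10, at 3.57.

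Nfe2l2, the gene of Nrf2 (chromosome 2), was lower after transplant in both cell types. It stood at 465 in CD4 after transplant, against 1556 in CD4 at transplant, and at 417 in CD8 after transplant, against 1126 in CD8 at transplant. Both later libraries lay below both libraries at transplant. The plain value was 3.35-fold lower in CD4 (95% counting interval 3.05 to 3.69) and 2.70-fold lower in CD8 (2.38 to 3.07), with log2 ratios of -1.71 and -1.40. At transplant Nfe2l2 was 1.38-fold higher in CD4 than in CD8 (1.29 to 1.48), and after it the interval of that ratio included 1 (1.11, 0.964 to 1.29).

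Keap1, the adaptor that presents Nrf2 for degradation (chromosome 9), was nearly level. It had 1339.8 in CD4 after transplant, against 1352 at transplant, and 1206 in CD8 after transplant, against 1169.7 at transplant. Both intervals of the ratio included 1, at 0.927 to 1.06 in CD4 and 0.946 to 1.12 in CD8, and the sign of both log2 ratios depended on the scaling. Its 4 values lay closer together than those of any of the other 9 genes.

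Among 13 measured partners and regulators of Nrf2 (a mean of at least 1 ppm), 1 was higher and 3 lower in CD4 after transplant, and 2 higher and 2 lower in CD8. For all genes at that level the shares were 13.7% and 11.7% in CD4 and 17.7% and 10.9% in CD8. The list median was -0.18 in CD4 and -0.25 in CD8, against -0.06 and 0.07 over all genes. Bach1, a repressor that competes with Nrf2 for antioxidant response elements until heme releases it, fell to 274 in CD4 after transplant, against 896 at transplant, and to 268 in CD8, against 810.2. Bach2, a related repressor that keeps T cells quiescent, fell further, to 89.5 in CD4, against 2489, and to 94.8 in CD8, against 1596 (log2 ratios of -4.59 and -3.88). Mafg, a small Maf partner, went the other way, with 283 in CD4 after transplant, against 89.0 at transplant, and 169 in CD8, against 51.2. Mafk, another small Maf protein, was at 374 in CD4 after transplant, against 765 at transplant, and at 365 in CD8, against 704, just past and just short of 2-fold lower. The transcripts of the activator Nfe2l2 and of both Bach repressors were thus lower together after transplant.

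Srxn1 encodes sulfiredoxin, which restores peroxiredoxins that peroxide has overoxidised, and it had the largest rise of the 10 genes (chromosome 2, with the promoter printed above). It stood at 341 in CD4 after transplant, against 15.3 at transplant, and at 209 in CD8 after transplant, against 4.13 at transplant. These are 389 reads against 23 in CD4, and 148 reads against 5 in CD8. Both later libraries were far above both libraries at transplant, and CD8 at transplant was near the floor of 3 reads. The plain ratio was 22.3 in CD4 (14.7 to 35.6) and 50.6 in CD8 (21.2 to 158), and the log2 ratio with the added value was 3.57 in each, above 98.5% of 9933 genes in CD4 and 97.7% in CD8. The wide interval in CD8 comes from the 5 reads at transplant.

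Prdx1, a peroxiredoxin that reduces hydrogen peroxide and a substrate of sulfiredoxin (chromosome 4), was higher in both later libraries by a smaller ratio. It had 4678 in CD4 after transplant, against 2602 at transplant, and 5714 in CD8 after transplant, against 2470.2 at transplant. The ratio was 1.80 in CD4 (1.73 to 1.87), short of 2-fold, and 2.31 in CD8 (2.21 to 2.43). After transplant its CD4 value was 0.819 times the CD8 value (0.786 to 0.853), while at transplant it was 1.05 times the CD8 value, a difference whose sign changed with the scaling.

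Txnrd1, the cytosolic thioredoxin reductase that keeps thioredoxin reduced at the expense of NADPH (chromosome 10), was about 2-fold higher in each cell type after transplant. It stood at 3051 in CD4 after transplant, against 1404 at transplant, and at 3157 in CD8 after transplant, against 1495 at transplant. The ratios were 2.17 in CD4 (2.06 to 2.29) and 2.11 in CD8 (1.98 to 2.25). In CD8 the log2 ratio of 1.07 became 0.97 and 0.99 under scaling by the trimmed mean of M-values and by the median of ratios, short of 2-fold.

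Txn1, thioredoxin itself, is the substrate of Txnrd1 and rose more steeply than its reductase. It had 3827 in CD4 after transplant, against 951 at transplant, and 4419 in CD8 after transplant, against 896 at transplant. The ratios were 4.03 (3.79 to 4.28) and 4.93 (4.60 to 5.29). Of the 18 measured genes of the thioredoxin and peroxiredoxin system other than the 10 genes, 3 were higher and 3 lower in CD4, where 13.7% and 11.7% of all genes were, and 3 were higher and 3 lower in CD8, where 17.7% and 10.9% were. The list medians were 0.04 in CD4 and 0.35 in CD8, against -0.06 and 0.07 over all genes. Prdx4, a peroxiredoxin of the endoplasmic reticulum, was at 750.4 in CD4 after transplant, against 199.9 at transplant, and at 454 in CD8, against 60.3. Sesn1 and Sesn3, sestrins that restrain growth signalling through mTORC1 under stress, were lower in both, with log2 ratios of -2.29 and -1.18 in CD4 and -3.11 and -1.64 in CD8. The list held large changes in both directions, in numbers near the shares of all genes.

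Nqo1, a reductase that converts quinones in a single 2-electron step (Entrez 18104, chromosome 8), was rare in every library but higher in both later ones. It had 48.2 in CD4 after transplant, against 9.96 at transplant, and 40.9 in CD8 after transplant, against 4.13 at transplant. The reads behind these values were 55 against 15 in CD4 and 29 against 5 in CD8. The plain ratio was 4.84 in CD4 (2.70 to 9.23) and 9.91 in CD8 (3.79 to 32.8), both intervals wholly above 2-fold. The log2 ratios of 1.35 and 1.56 are smaller because the added 14.7 is large beside the values, and they became 0.64 and 0.67 with an added value 4 times as large. Between CD4 and CD8 the counting intervals of the Nqo1 ratio included 1 at transplant (2.41, 0.833 to 8.48) and after it (1.18, 0.739 to 1.92).

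Genes of AhR were read beside Nqo1. Ahr itself had 247 in CD4 after transplant, against 106 at transplant, and 103 in CD8 after transplant, against 37.2 at transplant. Cyp1a1, the cytochrome P450 that AhR induces most strongly in many tissues, had 2 reads in CD4 after transplant, against 1 at transplant, and 4 in CD8 after transplant, against 1 at transplant. Tiparp, a target that restrains AhR, was within 2-fold and lower after transplant, with plain ratios of 0.703 in CD4 (0.623 to 0.796) and 0.673 in CD8 (0.569 to 0.791). Of 7 genes of AhR and its targets 3 were measured.

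Of 9 other measured enzymes for quinones and carbonyls, 2 were higher and 2 lower in CD4 after transplant (all genes 13.7% and 11.7%), and 3 were higher and 2 lower in CD8 (all genes 17.7% and 10.9%). Their medians were -0.26 in CD4 and 0.28 in CD8. Nqo2, the paralogue of Nqo1, rose in both cell types. It stood at 522 in CD4 after transplant, against 189 at transplant, and at 564 in CD8 after transplant, against 134 at transplant. Cbr1, a carbonyl reductase, and Ephx1, the microsomal epoxide hydrolase, fell, with log2 ratios of -2.02 and -2.66 in CD4 and -1.90 and -2.75 in CD8. Aldh2, a mitochondrial aldehyde dehydrogenase, was lower in CD4 by less than 2-fold (-0.63) and higher in CD8 (1.91).

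Among 8946 genes averaging 10 ppm (147) or more, those whose pattern over the 4 libraries lay closest to Nqo1 on the log2 scale with the added value were Cpped1, Mphosph6, 3830406C13Rik, Alms1 and Phlpp1. Their root mean square difference from Nqo1 was between 0.025 and 0.037 after centring. Their plain ratios after against at transplant were 2.61 to 2.74 in CD4 and 3.08 to 3.65 in CD8, below those of Nqo1, since the added value draws the rare Nqo1 towards 0. Of the other 9 antioxidant genes Gsr was nearest, at rank 10 with a difference of 0.074, and Nfe2l2 was farthest. This likeness rests on 4 libraries.

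Gclc and Gclm, the catalytic and modifier subunits of the enzyme that starts glutathione synthesis, stayed within 2-fold and took opposite directions. Gclc (chromosome 9) had 655 in CD4 after transplant, against 748 at transplant, and 714 in CD8 after transplant, against 859 at transplant. Its ratios were 0.876 (0.797 to 0.962) and 0.831 (0.746 to 0.925), and both log2 ratios were below 0 under each of the 8 settings tried. Of these settings the 2 filters cannot change a ratio, and upper quartile scaling nearly repeats the deposited scale.
Gclm (chromosome 3) had 487 in CD4 after transplant, against 353 at transplant, and 391 in CD8 after transplant, against 274 at transplant. Its ratios were 1.38 (1.23 to 1.56) and 1.42 (1.21 to 1.68). The modifier subunit was thus higher and the catalytic subunit lower in both later libraries.

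Gsr, glutathione reductase, regenerates reduced glutathione with NADPH and rose past 2-fold in both cell types (chromosome 8). It stood at 1829 in CD4 after transplant, against 817 at transplant, and at 1774 in CD8 after transplant, against 581 at transplant. The ratios were 2.24 in CD4 (2.08 to 2.40) and 3.05 in CD8 (2.78 to 3.35). At transplant Gsr was 1.41-fold higher in CD4 than in CD8 (1.28 to 1.54), and after it the interval of that ratio included 1 (1.03, 0.960 to 1.11).

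Of 28 other measured genes of glutathione synthesis and use, 4 were higher and 3 lower in CD4 after transplant, near the shares of all genes (13.7% and 11.7%). In CD8 7 were higher and 3 lower (all genes 17.7% and 10.9%). The list medians were 0.31 in CD4 and 0.20 in CD8, against -0.06 and 0.07 over all genes. Glrx, glutaredoxin, which removes glutathione from protein cysteines, had the largest ratio of those named. It had 3034 in CD4 after transplant, against 550.5 at transplant, and 2261 in CD8 after transplant, against 312 at transplant. Gsto1, an omega glutathione transferase, was higher too, with log2 ratios of 1.49 in CD4 and 2.48 in CD8. Mgst2, a microsomal glutathione transferase, was lower, at 152 in CD4 after transplant, against 436 at transplant, and at 237 in CD8, against 525. Slc7a11, the cystine importer that feeds glutathione synthesis and a known Nrf2 target, was at 1844 in CD4 after transplant, against 963 at transplant, and at 2164 in CD8 after transplant, against 933 at transplant. Its log2 ratio of 0.93 in CD4 was short of 2-fold, and CD8 was past it.

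NADPH is the reductant of Gsr and Txnrd1, and the list for its supply also holds genes of linked steps that do not make it. Of 15 measured genes of that list, 0 were higher and 1 lower in CD4 after transplant (all genes 13.7% and 11.7%). In CD8 1 was higher and 1 lower (all genes 17.7% and 10.9%). Their medians of 0.24 in CD4 and 0.48 in CD8 lay above those of all genes, -0.06 and 0.07. The lower gene in both was Idh2, the mitochondrial isocitrate dehydrogenase that makes NADPH, with 332 in CD4 after transplant, against 1034 at transplant, and 217 in CD8, against 755. Mthfd2, of mitochondrial folate metabolism, was the higher one in CD8, at 1317 after transplant, against 535 at transplant. Tkt, a transketolase of the pentose phosphate pathway, and Mthfd1 stayed under 2-fold, with log2 ratios in CD4 of 0.65 for Tkt and 0.60 for Mthfd1. Of 4 measured genes of superoxide and catalase chemistry, 0 were higher in either cell type (all genes 13.7% in CD4 and 17.7% in CD8) and 1 was lower in CD4 (all genes 11.7%), too few genes to read against those shares. The lower one was Ccs, the copper chaperone of Sod1, at 251 in CD4 after transplant, against 554 at transplant, while Sod1, the cytosolic superoxide dismutase, had log2 ratios of 0.81 in CD4 and 0.92 in CD8.

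**Figure D4:**
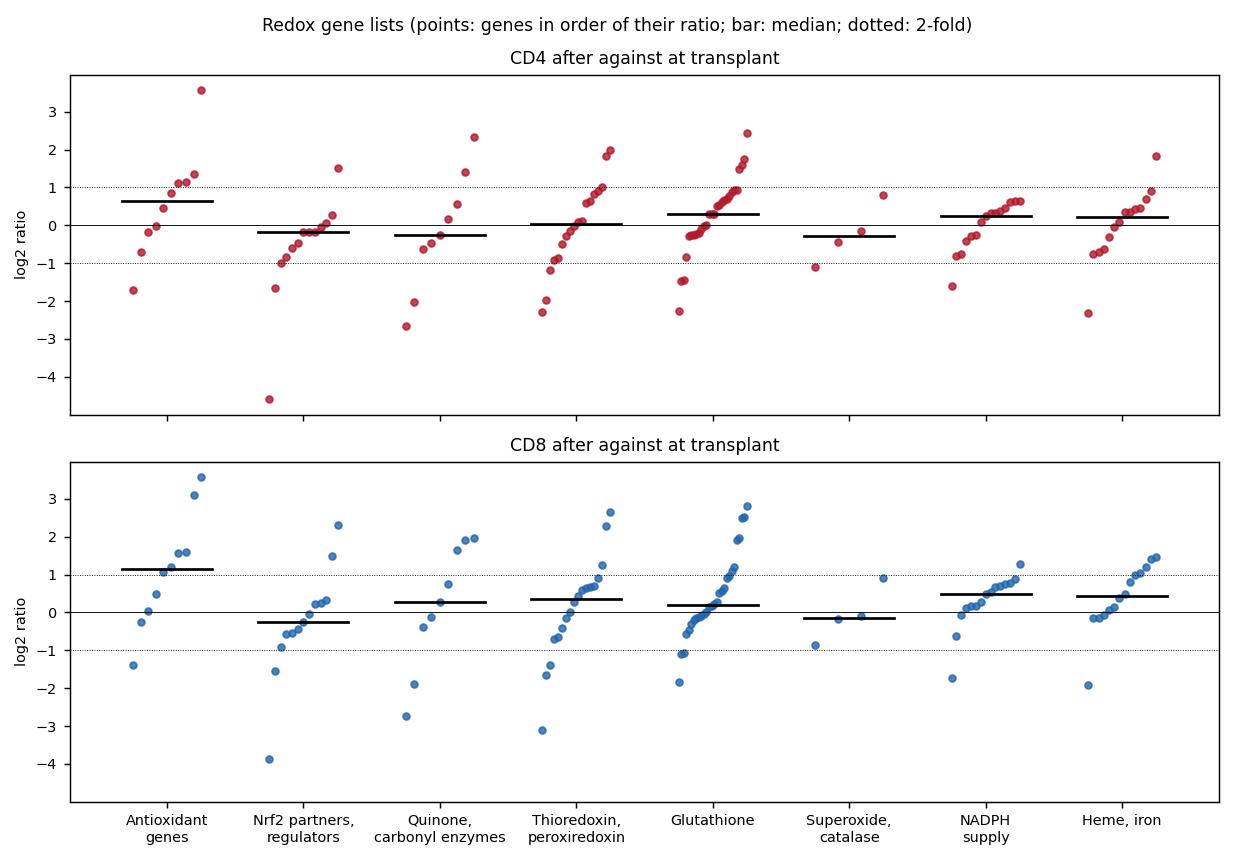
Log2 ratio after against at transplant in CD4 (upper) and CD8 (lower) for the measured genes of 8 lists, the first being the 10 antioxidant genes; points run in order of ratio within a list, bars are medians and dotted lines mark 2-fold. The median of the 10 antioxidant genes is 0.65 in CD4 and 1.14 in CD8, and the NADPH supply list has 0 and 1 genes above 2-fold.

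Hmox1 encodes heme oxygenase 1, which splits heme into biliverdin, iron and carbon monoxide, and it was the gene on which CD4 and CD8 differed most (chromosome 8). It had 264 in CD4 after transplant, against 436 at transplant, and 265 in CD8 after transplant, against 18.2 at transplant. In reads this was 301 against 657 in CD4 and 188 against 22 in CD8. The 2 later libraries were nearly equal (ratio 0.995, with an interval that included 1), whereas at transplant CD4 was 24.0-fold above CD8 (15.7 to 38.6). After against at transplant the ratio was 0.605 in CD4 (0.526 to 0.694) and 14.6 in CD8 (9.36 to 23.8). The CD4 log2 ratio minus the CD8 log2 ratio was -3.79. Among the 9 genes above 5 ppm Hmox1 was the only one with a difference of at least 1 either way, where 6.04% of all genes had one.

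Macrophage and monocyte genes moved with Hmox1, and markers of NK and dendritic cells did so in part. Macrophages of the spleen, which take up aged red cells, express Hmox1 at high level, and in bulk RNA fewer cells of a type and less RNA per cell cannot be told apart. The sum of 15 macrophage and monocyte markers was 3529.8 in CD4 after transplant, against 7969.8 at transplant, and 3392 in CD8 after transplant, against 863 at transplant, the same order of libraries as Hmox1 except that the 2 later libraries changed places. Of 14 measured, 0 were higher and 10 lower in CD4 after transplant (all genes 13.7% and 11.7%), and 9 were higher and 0 lower in CD8 after transplant (all genes 17.7% and 10.9%). All 14 were higher in CD4 than in CD8 at transplant, where 7.16% of all genes at that level were. Cd14 and Marco were at 0 in CD8 at transplant, and no marker of this list was at 0 in any other library. Slc40a1, ferroportin, which exports the iron that heme oxygenase frees, had 186 in CD4 after transplant, against 982 at transplant, and 141 in CD8 after transplant, against 43.8 at transplant. Aldh2 had the same signs. Of 6 NK cell markers 5 were lower and 1, Eomes, higher in CD4 after transplant (all genes 11.7% and 13.7%). At transplant 5 of the 6 were higher in CD4 than in CD8 (all genes 7.16%). Klrb1c, a receptor of NK cells, had 86.2 in CD4 after transplant, against 424 at transplant, and 175 in CD8 after transplant, against 69.4 at transplant. This is the same order of libraries as Hmox1, and none of the other NK cell markers had it. In CD8 after transplant 1 of the 6 NK cell markers was higher and 1 lower (all genes 17.7% and 10.9%). The sum of the 6, between 974 and 2233, was carried in the CD8 libraries by Eomes, which CD8 T cells also express. Ncr1 was at 0 in CD4 after transplant, and Klra8 was at 0 in both later libraries. The sum of 9 dendritic cell markers was 3053 in CD4 after transplant, against 7918 at transplant, and 5105 in CD8 after transplant, against 1897 at transplant. Cd74 and H2-Aa, genes of antigen presentation that other cells share, made up most of it. Of 8 measured, 1 was higher and 4 lower in CD4 after transplant (all genes 13.7% and 11.7%). In CD8 4 were higher and 0 lower (all genes 17.7% and 10.9%). At transplant 4 of the 8 were higher in CD4 than in CD8 (all genes 7.16%). Itgax had 136 in CD4 after transplant, against 579 at transplant, and 1119 in CD8 after transplant, against 195 at transplant. Xcr1 was higher in both later libraries (log2 ratios 1.77 and 1.67). Siglech was at 0 in CD8 after transplant. The part of macrophages, NK cells and dendritic cells in the Hmox1 values was not tested.

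**Figure D5:**
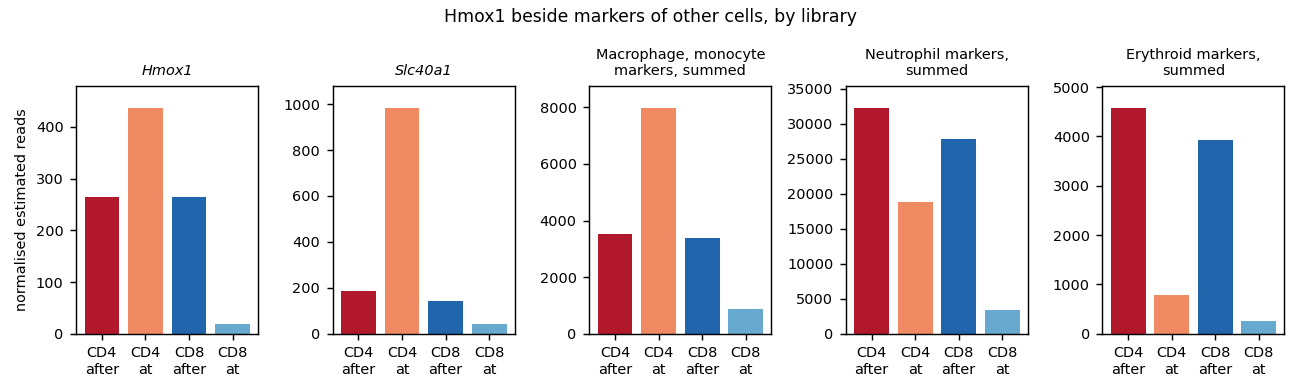
Normalised read count of Hmox1 and Slc40a1 and summed counts of markers of macrophages and monocytes, neutrophils and erythroid cells in each library. Hmox1, Slc40a1 and the macrophage sum are highest in CD4 at transplant (436, 982 and 7969.8) and lowest in CD8 at transplant (18.2, 43.8 and 863).

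Markers of erythroid cells and neutrophils also differed between the libraries. The sum of 10 erythroid markers was 4569 in CD4 after transplant, against 788 at transplant, and 3916 in CD8 after transplant, against 248 at transplant, and 9 of 10 were higher in both later libraries, as were 11.8% of all genes at 1 ppm or more. Only Epb4.2 was at 0, in CD8 at transplant. The sum of 10 neutrophil markers was 32201 in CD4 after transplant, against 18796 at transplant, and 27856 in CD8 after transplant, against 3365 at transplant, with none at 0. Of the 10, 3 were higher, 1 lower and 6 within 2-fold in CD4 after transplant (all genes 13.7% higher and 11.7% lower). The lower one was Cxcr2, with a log2 ratio of -1.40. In CD8 9 were higher and 0 lower (all genes 17.7% and 10.9%). At transplant all 10 neutrophil markers were higher in CD4 than in CD8 (all genes 7.16%), as the macrophage and monocyte markers were. Of the 10 erythroid markers 2 were. The erythroid and neutrophil sums moved in the same direction as Srxn1, Nqo1, Gsr, Txnrd1 and Prdx1. The part of these cells in those rises, and in the Hmox1 values, was not tested. Of 14 measured genes of heme and iron, 1 was higher and 1 lower in CD4 after transplant (all genes 13.7% and 11.7%), and 4 were higher and 1 lower in CD8 (all genes 17.7% and 10.9%). Their medians were 0.22 in CD4 and 0.44 in CD8. Tfrc, the transferrin receptor that both dividing T cells and erythroid cells use to take up iron, was higher in both, at 3106 in CD4 after transplant, against 866 at transplant, and at 2789.8 in CD8 after transplant, against 1007 at transplant. Slc11a2, an iron transporter, was lower in CD8 (log2 ratio -1.92) and had -0.70 in CD4. Blvra, the biliverdin reductase that acts on the product of heme oxygenase, had log2 ratios of 0.71 in CD4 and 0.98 in CD8, short of 2-fold. It stood at 675 in CD4 after transplant, against 408 at transplant, and at 622 in CD8 after transplant, against 308 at transplant. Without the added value its ratio in CD8 was 2.02 (1.76 to 2.32).

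Between the cell types the 10 genes were close after transplant. At transplant 1 of the 9 genes above 5 ppm, Hmox1, was at least 2-fold higher in CD4 than in CD8, where 4.92% of all genes were, and 0 were lower, where 1.48% were. After transplant 0 of the 9 passed 2-fold in either direction, where 3.37% of all genes did. The largest remaining difference after transplant was that of Srxn1, at 341 in CD4 and 209 in CD8 (ratio 1.63, 1.35 to 1.99). At transplant Srxn1 was at 15.3 in CD4 and 4.13 in CD8 (3.70, 1.38 to 12.5), so that its log2 ratio of 0.67 at each time stayed under 2-fold, and it reached 1.28 at transplant with an added value 0.25 times as large.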

How the data were processed

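RNA of sorted CD4 and CD8 splenic T cells was sequenced in 4 libraries, 1 for each cell type after and at transplant, prepared with the TruSeq protocol per the labels. The deposited table holds a signal: estimated reads scaled per library to an upper quartile near 1000. RSEM 1.1.13, SAMtools 1.2 and build mm9 are named in the submitters' processing notes, and for the aligner, gene annotation and scaling method the notes and labels name nothing (not given in the sources used here). Between 86.4 and 87.6% of values above 0 were whole multiples of 1 read within 0.1, so they are estimated reads, and no count model was used.

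The 10 genes, the related lists and the motif TGACNNNGC were chosen with earlier results of these data known. Named genes were the 10 genes, up to 4 per redox list with the largest ratio after against at transplant and a mean of at least 10 ppm, and Ahr, Cyp1a1, Bach1, Bach2 and Txn1. Tiparp entered by its list. Markers of other cells were taken from lists of macrophage, dendritic, erythroid, neutrophil and NK cell genes, and a further marker list is not reported here. Missing symbols were matched through Entrez identifiers. Ratios, exact conditional binomial intervals and Poisson intervals on reads were computed in Python 3.11.15 with SciPy 1.17.1, over 9933 genes at 5 ppm or 11627 at 1 ppm, and were tested on simulated data. A floor of 3 reads stood between 1.99 and 4.23. Alternatives were 4 scalings, 2 added values, 2 filters and calls by the counting interval. As each group had 1 library, no test was made between groups, and the intervals cover counting error only.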

Additional observations from a re-analysis of the deposited data

Results flagged for a closer look

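Hmox1 moved in opposite directions in the 2 cell types. Its log2 ratio after against at transplant was -0.70 in CD4 and 3.09 in CD8, and both counting intervals of the plain ratio lay on 1 side of 1. The difference between the cell types was not tested, since each group had 1 library. The CD4 change of Hmox1 was short of 2-fold, and CD8 at transplant had 22 reads. Slc40a1 showed the same signs, at -2.31 in CD4 and 1.41 in CD8. Of 14 measured macrophage and monocyte markers, 10 were lower in CD4 after transplant (all genes 11.7%) and 9 higher in CD8 (all genes 17.7%). The part of such cells in the Hmox1 values was not tested.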

How the results depend on the processing

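Of the counts of genes and members, 177 values under alternatives stayed within 1.5 times the reported one and 11 did not, and 0 called ratios changed sign. With an added value 0.25 times as large, the genes of the 10 that were higher in CD4 than in CD8 at transplant numbered 2. With one 4 times as large, the genes higher in CD4 than in CD8 numbered 316 at transplant and 158 after it. Without a filter, 1102 genes passed 2-fold between CD4 and CD8 at transplant (912 higher) and 563 after it (375 higher and 188 lower), and 1177 genes differed by at least 1 between the CD4 and CD8 log2 ratios. At a mean of at least 10 ppm 318 genes were higher in CD4 at transplant, and by the counting interval 151 were after it. The scalings moved the median of all genes by at most 0.15 (equal totals, CD4 after against at transplant) and by -0.18 (median of ratios, CD4 against CD8 at transplant). Signs of the Keap1 ratios, and of the Prdx1 ratio between CD4 and CD8 at transplant, changed with them. With the second motif spelling searched as well, 5 of 7 genes had a match, where 30.8% of all genes with a window had one. For the first spelling alone the share of all genes was 14.0%. The counting interval was not applied to the difference of ratios. No paired analysis was possible because each group held 1 library, and no library could be left out.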
